A study of Homo sapiens with 14 samples.

Results

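The genes that make, sense and break down prostaglandin E2 were followed in HEK293 cells that carry a HOX transgene. They were the cyclooxygenases PTGS1 and PTGS2, the terminal synthases PTGES, PTGES2 and PTGES3, the receptors PTGER2, PTGER3 and PTGER4, and the degrading enzyme HPGD. These 9 genes are read by 27 of the 54675 probe sets of the array, and every probe set annotated to 1 of them was taken. The set was chosen knowing that PTGER4 and PTGS2 were higher in the HOXD13 lines, so for these 9 genes the HOXD13 comparison is a description without a test, whereas the HOXD9 comparison was not used in the choice and was tested.

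HEK293 is a line derived from human embryonic kidney cells. All 14 cultures were transfected and then selected by G418, which kills cells lacking the resistance gene of the plasmid. In 4 HOXD9 lines the vector encoded HOXD9 with an HA tag, in 4 HOXD13 lines it encoded HOXD13 with a V5 tag, and the 3 HA vector and 3 V5 vector arrays came from cells given the tag vector without a HOX gene. Each HOX gene was represented by a mixed population and by clones a, b and c, which the labels describe as picked from that population, so the 4 lines of a gene are not fully independent. The vector arrays are labelled as biological replicates with no word on how their cultures were kept apart, and p-values therefore measure only the spread between these samples, which may be technical. Over the probe sets tested below, the median SD was 0.053 in the HA vector and 0.057 in the V5 vector arrays. It was 0.28 in the HOXD9 and 0.27 in the HOXD13 lines, so the vector arrays lay much closer together.

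Prostaglandin E2 is made in steps. Phospholipases free arachidonic acid from membranes, a cyclooxygenase turns it into prostaglandin H2, and a PGE synthase completes the molecule. Outside the cell it binds G protein-coupled receptors: those encoded by PTGER2 and PTGER4 raise cyclic AMP, and the one encoded by PTGER3 mostly lowers it. HPGD inactivates the molecule after it has been taken back into cells.

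The stretches just upstream of the transcription start of PTGER4 and PTGS2 are shown because these are the genes that stood higher in the HOXD13 lines. They are RefSeq sequence of GRCh38.p14, 250 bases each, read 5′ to 3′ on the strand of the gene. PTGER4 lies on the plus strand (chr5:40679665-40679914) and PTGS2 on the minus strand (chr1:186680424-186680673). Capitals mark every match to the 5 motifs searched on both strands.
PTGER4: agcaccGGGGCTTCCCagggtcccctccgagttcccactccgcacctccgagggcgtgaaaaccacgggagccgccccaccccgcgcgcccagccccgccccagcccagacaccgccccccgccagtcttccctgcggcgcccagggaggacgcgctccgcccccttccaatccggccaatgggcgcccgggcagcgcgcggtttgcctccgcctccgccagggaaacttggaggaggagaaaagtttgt
PTGS2: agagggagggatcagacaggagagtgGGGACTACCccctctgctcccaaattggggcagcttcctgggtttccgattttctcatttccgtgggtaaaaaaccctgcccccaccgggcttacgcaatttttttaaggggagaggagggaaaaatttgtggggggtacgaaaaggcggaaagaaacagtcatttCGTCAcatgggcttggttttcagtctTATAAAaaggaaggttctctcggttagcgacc
The motifs were TTTAT (the core bound by HOXD13), TGANTCA (AP-1), TGACG (part of the cAMP response element), GGGNNTNCC (NF-kB) and TATAAA (the TATA box). In the PTGS2 stretch, GGGNNTNCC stood 224 to 216 bases before the start, TGACG on the opposite strand 58 to 54 bases before it, and TATAAA 32 to 27 bases before it. The 1 TTTAT match of PTGS2 was on the opposite strand at bases 31 to 27 and lay inside the TATAAA match. The PTGER4 stretch held GGGNNTNCC alone, as 2 overlapping matches between bases 244 and 235. Of 34943 promoters of the same length, TTTAT was found in 32.8%, TGANTCA in 6.59%, TGACG in 21.2%, GGGNNTNCC in 18.2% and TATAAA in 10.8%. The stretches also differed in base composition, with 72.8% G and C for PTGER4 and 50.4% for PTGS2, against a median of 58.0% over all promoters. Matches are letters in a window and not binding sites.

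At least 1 probe set of each transgene followed the labels in every line. One HOXD9 probe set lay between 6.65 and 7.76 in the HOXD9 lines and between 2.52 and 2.83 in the HA vector arrays, and one HOXD13 probe set lay between 12.24 and 12.59 in the HOXD13 lines and between 6.84 and 7.01 in the V5 vector arrays. The other HOXD9 probe set lay between 4.33 and 4.54 in the HOXD9 lines and between 4.20 and 4.24 in the HA vector arrays. Another HOXD13 probe set lay between 8.26 and 8.41 in the HOXD13 lines and between 3.05 and 3.45 in the V5 vector arrays. The third HOXD13 probe set read 10.15, 10.23 and 10.42 in the mix and clones a and b but 8.87 in clone c, which was below the V5 vector arrays (8.93 to 8.95). All values are log2 expression values, normalized separately in the HA and V5 sets, so levels are set side by side only within a tag. Values of a HOX gene's lines are listed for the mix and clones a, b and c, and those of vector arrays by their number. HOXD13 clone c stood apart: it was the highest or the lowest of the 4 HOXD13 lines in 87.5% of the 19816 probe sets tested. Its ACTB 3' probe set exceeded the 5' one by 2.80, against 1.70 to 2.37 on the other 13 arrays, a measure of RNA quality. With that difference as a covariate the HOXD13 shift was 2.55 for PTGER4 and 1.13 for PTGS2. Of 9 HEK293 markers 7 passed the filter on low values, while NEFM was below 3 on all arrays and PAX2 lay between 3.21 and 4.89. All 7 macrophage and all 7 endothelial markers on the array were below 3 everywhere. Of 7 fibroblast markers only COL1A1 passed the filter, and the mean of the list was 3.12 to 3.26 in the HOXD13 lines and 3.14 to 3.17 in the V5 vector arrays.

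Prostaglandin E2 genes were read mostly near the floor of the array. Of the 27 probe sets, 16 stayed below a log2 value of 3 on all 14 arrays, a range in which the background model sets most of a fold change, and 4 passed the filter for testing (a value of at least 5 on at least 3 arrays). The 4 tested probe sets read PTGS2, PTGES2, PTGES3 and PTGER4. Of these, PTGS2 passed only through the HOXD13 lines and PTGER4 only through arrays of the V5 set. Both stayed under 5 on every array of the HA set, so their HOXD9 tests are of dim values. In bulk RNA, fewer cells that express a gene and less of its RNA per cell cannot be told apart.

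Among the cyclooxygenases, PTGS2 was higher in every HOXD13 line. PTGS2 encodes the inducible enzyme, and its brighter probe set read 5.52, 5.51, 5.63 and 6.06 in the HOXD13 lines, against 4.63, 4.64 and 4.42 in the V5 vector arrays. The groups did not overlap, and clone c was the highest line. The means were 5.68 ± 0.26 (SD, n = 4) in the HOXD13 lines and 4.56 ± 0.12 (SD, n = 3) in the V5 vector arrays, a difference of 1.12 (SE 0.27), or 2.17-fold. The shift was 0.99 without clone c.

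HOXD9 showed no such separation for PTGS2. The same probe set read 3.84, 4.01, 3.95 and 2.72 in the HOXD9 lines, against 3.53, 3.95 and 3.91 in the HA vector arrays. Clone c lay below every vector array and the other lines lay among or just above them. The means were 3.63 ± 0.61 (SD, n = 4) in the HOXD9 lines and 3.80 ± 0.23 (SD, n = 3) in the HA vector arrays, and the difference of -0.17 (SE 0.27) did not pass limma's test (adjusted p = 0.706). Without HOXD9 clone c the difference was 0.14 (adjusted p = 0.714 in limma). The other PTGS2 probe set stayed between 2.32 and 2.47 on all arrays, so the PTGS2 differences rest on 1 probe set.

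PTGS1, which encodes the cyclooxygenase that most tissues make constantly, was not read above the floor. Its 4 probe sets lay between 2.16 and 2.41 on all 14 arrays.

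Of the PGE synthases, PTGES2 and PTGES3 were bright enough to test, and neither was called in the HOXD9 lines. PTGES3 encodes p23, a small co-chaperone of Hsp90 that also acts as a cytosolic PGE synthase. Its 1 probe set read 13.09, 12.86, 13.10 and 12.94 in the HOXD9 lines, against 13.22, 13.24 and 13.25 in the HA vector arrays. All 4 lines were below all 3 vector arrays. The difference of -0.24 (SE 0.10) had an unadjusted p of 0.0349 and an adjusted p of 0.219 in limma and was not called. When 1 array was left out, the adjusted p in limma ran from 0.0845 (without HOXD13 clone c) to 0.452 (without HA vector 2). In the HOXD13 set PTGES3 read 13.61, 13.49, 13.44 and 13.75 in the HOXD13 lines, against 13.74, 13.79 and 13.76 in the V5 vector arrays. The mix and clones a and b lay below the vector arrays and clone c lay among them, with a mean difference of -0.19 (SE 0.10).

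PTGES2 encodes a membrane-associated synthase. Its 1 probe set read 6.61, 7.06, 6.37 and 7.03 in the HOXD9 lines, against 6.29, 6.32 and 6.37 in the HA vector arrays. Every HOXD9 line was at or above the highest vector array, clone b by the least, and the difference of 0.44 (SE 0.35) did not pass limma's test (adjusted p = 0.448). With the ACTB 3' to 5' difference as a covariate it was 0.06 (adjusted p = 0.851 in limma). With only the 7 arrays of the HA set in the fit, the PTGES2 shift stayed at 0.44 (adjusted p = 0.242 in limma). When 1 array was left out, the adjusted p in limma ran from 0.0940 (without HOXD13 clone c) to 0.694 (without HOXD9 clone c). In the HOXD13 set PTGES2 read 6.85, 7.02, 7.34 and 5.38 in the HOXD13 lines, against 6.94, 6.79 and 6.80 in the V5 vector arrays. Clone c was far below all other arrays of the set, and the mean difference of -0.20 (SE 0.35) became 0.23 without it.

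PTGES, the inducible microsomal synthase that is often paired with PTGS2, was too dim to be tested. The brighter of its 2 probe sets read 4.12, 4.27, 3.84 and 3.61 in the HOXD13 lines, against 3.82, 3.86 and 3.86 in the V5 vector arrays. The mix and clone a were above the vector arrays and clone c was below them, so the groups overlapped. In the HA set it read 3.12, 2.81, 3.11 and 3.24 in the HOXD9 lines, against 3.15, 3.17 and 3.15 in the HA vector arrays, and these groups overlapped too. The other PTGES probe set lay between 2.22 and 2.27 everywhere.

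Among the receptors, PTGER4 was the member that stood furthest from its vector arrays. PTGER4 encodes EP4, a receptor that raises cyclic AMP, and the brighter of its 2 probe sets read 8.61, 8.75, 8.77 and 8.27 in the HOXD13 lines, against 5.94, 6.01 and 6.19 in the V5 vector arrays. The groups were far apart, and clone c, the lowest line, still exceeded the highest vector array. The means were 8.60 ± 0.23 (SD, n = 4) in the HOXD13 lines and 6.05 ± 0.13 (SD, n = 3) in the V5 vector arrays, a difference of 2.56 (SE 0.17), or 5.88-fold, which ranked 11 from the highest of 19816 probe sets. PTGS2 ranked 205 on the same scale. The set was chosen knowing that both genes were higher in this comparison, so nothing is read from these ranks. Line by line the PTGER4 shift was 2.57, 2.71, 2.73 and 2.22, and without clone c the difference was 2.67.

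In the HOXD9 lines PTGER4 overlapped with the vector arrays. It read 4.84, 4.14, 4.71 and 4.72 in the HOXD9 lines, against 4.95, 4.86 and 4.67 in the HA vector arrays. Clone a was the lowest of the 7 arrays. The difference of -0.22 (SE 0.17) did not pass limma's test (adjusted p = 0.437), and without clone a it was -0.07 (adjusted p = 0.778). The other PTGER4 probe set lay between 2.13 and 2.20 on all arrays, so PTGER4 too was read by 1 probe set.

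**Figure D1:**
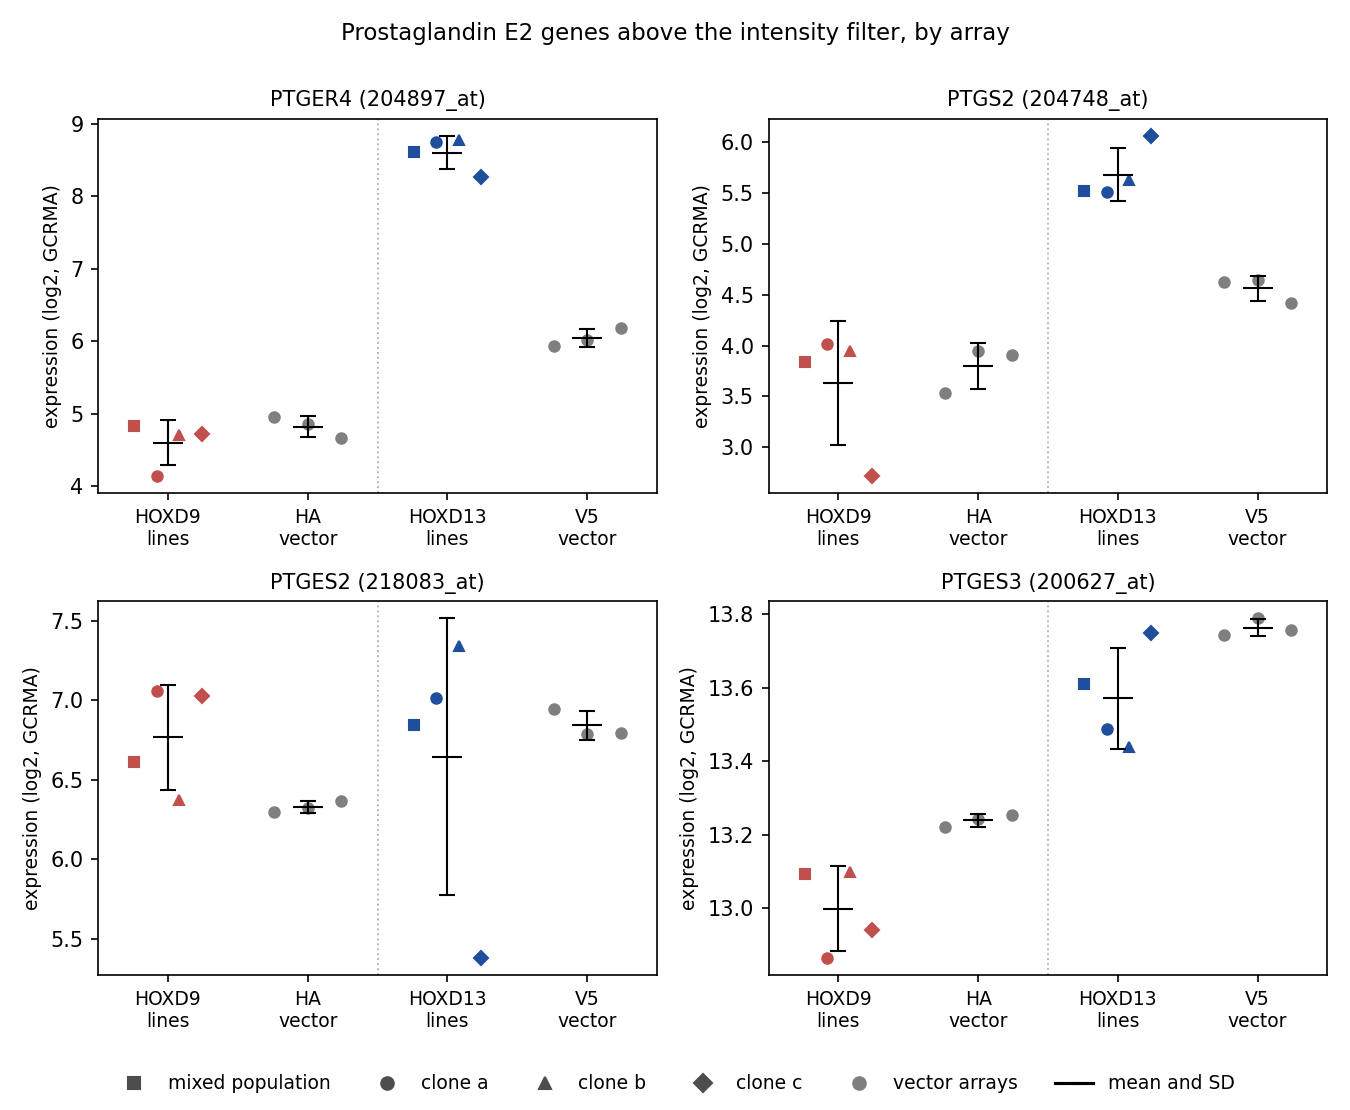
Log2 expression (vertical axis) of the 4 tested probe sets on each of the 14 arrays, with HOX lines left of the vector arrays of their tag and black marks for each group's mean and SD. PTGER4 is higher in all 4 HOXD13 lines (8.27 to 8.77) than in the V5 vector arrays (5.94 to 6.19), PTGS2 likewise (5.51 to 6.06 against 4.42 to 4.64), and PTGES2 of HOXD13 clone c stands at 5.38.

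PTGER2 encodes EP2, the other receptor that raises cyclic AMP, and was dim. Its 1 probe set read 4.15, 4.13, 4.22 and 3.58 in the HOXD13 lines, against 3.90, 3.84 and 3.83 in the V5 vector arrays. The mix and clones a and b were above every vector array by a small margin, and clone c was below every one. In the HA set all 7 arrays lay between 2.65 and 2.71.

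PTGER3 encodes EP3 and was covered by 10 probe sets, of which 8 stayed below 3 on all arrays. One of the remaining probe sets lay between 2.76 and 3.11 on all 14 arrays. The other read 2.51, 2.30, 2.30 and 3.17 in the HOXD13 lines, against 2.28 in each V5 vector array. All 4 lines were above the vector arrays, but clones a and b by 0.01 and 0.02, and the values are close to the floor.

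HPGD, the enzyme that inactivates prostaglandin E2, had no probe set bright enough to test. Of its 4 probe sets, 3 reached a value of 3 on some array. One read 2.28, 2.74, 2.72 and 3.85 in the HOXD13 lines, against 2.79, 2.92 and 2.87 in the V5 vector arrays. Clone c was above the vector arrays and the other lines were below them. Another read 3.35, 3.18, 3.11 and 3.42 in the HOXD13 lines, against 3.21, 3.16 and 3.28 in the V5 vector arrays, with overlap. On the last, clone c read 3.34 against 2.60 to 2.64 in the other HOXD13 lines, and the V5 vector arrays lay between 2.63 and 3.19. In the HA set the HPGD probe sets stayed below 3.

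**Figure D2:**
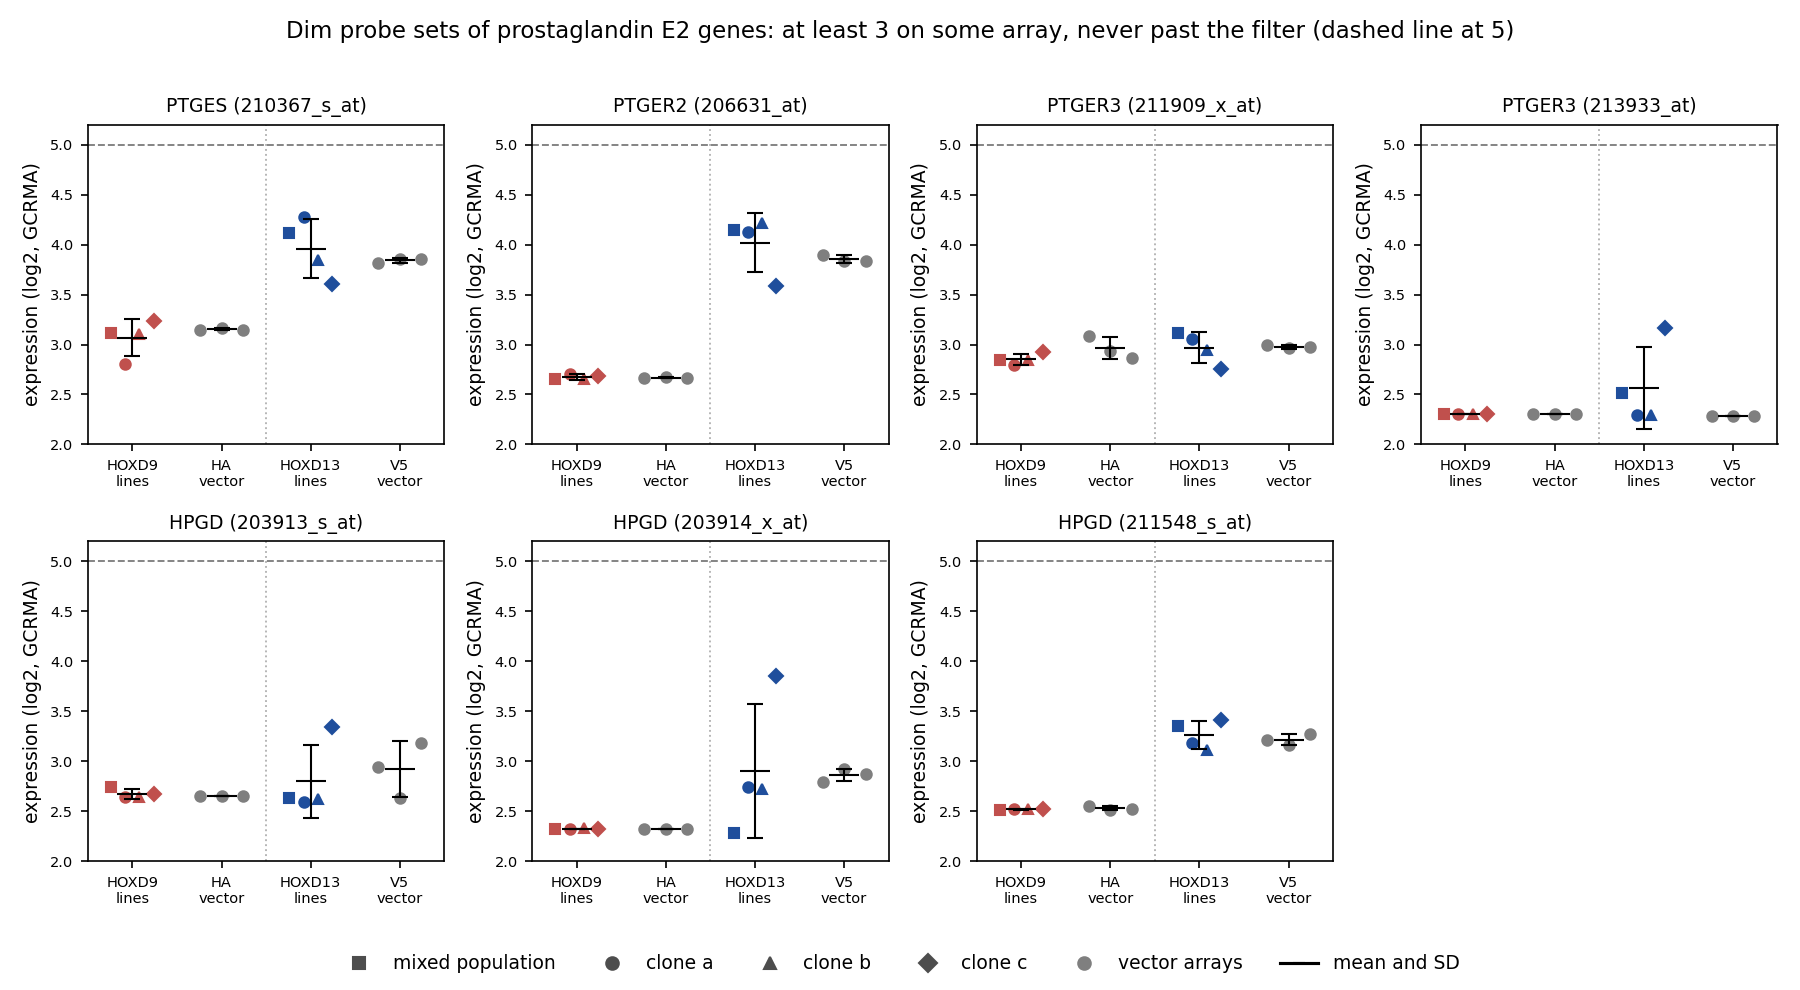
Log2 expression (vertical axis) of the 7 probe sets that reached 3 on some array without passing the filter, on each of the 14 arrays, with HOX lines left of the vector arrays of their tag. All values lie at or under 4.27, and HOXD13 clone c departs from the other HOXD13 lines in PTGER2 (3.58) and HPGD (3.85 and 3.34).

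Over the tested members, limma called 0 of 4 probe sets in the HOXD9 comparison, where PTGS2 and PTGER4 stayed under 5 on every array. Over all probe sets it called 6 of 19816 (0.0303%), of which 4 were higher (0.0202%) and 2 lower (0.0101%). Of the 4 member probe sets, 1 had an unadjusted p under 0.05, beside 20.6% of all probe sets. In the HOXD13 comparison the choice of the set fixed the outcome, so the 2 of 4 member probe sets past the threshold, PTGER4 and PTGS2, are no test and nothing is read from their number. Over all probe sets 1721 of 19816 were called in that comparison (8.68%), 494 higher (2.49%) and 1227 lower (6.19%). Over all 27 probe sets in the HOXD9 comparison, 1 had all lines above the vector arrays, 1 had all lines below and 25 overlapped, and over the 19816 tested probe sets the shares were 18% above and 14.2% below. In the HOXD13 comparison 3 had all lines above, 0 had all lines below and 24 overlapped, and over the tested probe sets the shares were 8.6% above and 18.1% below. The 27 include 16 probe sets near the floor, a kind that the tested ones leave out, so the shares are not like for like. The median shift of all tested probe sets was 0.04 in the HOXD9 lines and -0.02 in the HOXD13 lines.

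Around the members, 9 lists of 146 other genes of the pathway were read, of which 89 genes were tested. In the HOXD9 comparison limma called 0 of them at an adjusted p under 0.05, with a smallest adjusted p of 0.165, and 17 had an unadjusted p under 0.05, beside 20.6% of all probe sets. In the HOXD13 comparison 8 were called, 4 higher and 4 lower, which is 8.99% of the 89 and close to the 8.68% of all probe sets. The units differ, because the 89 are genes with 1 probe set each. In a fit with 1 probe set a gene, 9 of the 89 were called and 1101 of all 10349 genes. The count moved with single arrays. It was 1 without V5 vector 2, 2 without V5 vector 3, HOXD13 clone a or clone b, 3 without V5 vector 1 or the HOXD13 mix, 5 without HA vector 3 and 36 without HOXD13 clone c.

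Over all probe sets 2.49% were called higher and 6.19% lower in the HOXD13 comparison, shares that stand beside each list count below. Upstream of the cyclooxygenases, 0 of 8 tested genes of arachidonate release rose in the HOXD13 lines and 2 fell. PLA2G4C, a cytosolic phospholipase A2, read 4.95, 5.00, 4.83 and 5.72 in the HOXD13 lines, against 5.94, 6.18 and 6.02 in the V5 vector arrays. All 4 lines were lower and clone c was the closest to the vector arrays (-0.93, SE 0.18, adjusted p = 0.00888 in limma). ANXA1, a protein known to restrain phospholipase A2, read 5.42, 4.66, 5.13 and 5.85 in the HOXD13 lines, against 6.88, 6.31 and 6.57 in the V5 vector arrays. Its difference was -1.32 (SE 0.37, adjusted p = 0.0450 in limma).

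Beside the prostaglandin E2 branch, 0 of 3 tested synthases of other prostanoids were called in the HOXD13 lines. TBXA2R, the 1 tested receptor, was not called either. Of these 4 genes, 0 had an unadjusted p under 0.05, beside 25.1% of all probe sets in that comparison. Of 7 tested genes of prostanoid transport and reduction 1 fell, PTGR1, a reductase that acts on prostaglandins after HPGD (-0.49, SE 0.13, adjusted p = 0.0396 in limma). PTGR1 read 9.11, 8.78, 8.82 and 9.38 in the HOXD13 lines, against 9.55, 9.51 and 9.48 in the V5 vector arrays, so every line was lower. The list of the lipoxygenase branch also held epoxide hydrolases, and of its 6 tested genes 1 fell. It was EPHX2, a soluble epoxide hydrolase that acts on epoxides of arachidonic acid, which are not lipoxygenase products. EPHX2 read 5.30, 4.96, 5.05 and 5.18 in the HOXD13 lines, against 5.53, 5.80 and 6.05 in the V5 vector arrays, again with every line lower (-0.67, SE 0.15, adjusted p = 0.0195 in limma).

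Downstream of the receptors, 0 of 23 tested genes of the G protein and cAMP machinery were called in the HOXD13 lines. An unadjusted p under 0.05 was found for 3 of them, beside 25.1% of all probe sets, and the median shift was -0.23. Of 14 tested cAMP-responsive transcripts, 3 rose, 0 fell and 11 were not called, beside 2.49% higher and 6.19% lower over all probe sets. The median shift of the list was 0.49, beside -0.02 over all probe sets. A part of the receptors or of cyclic AMP in these shifts was not tested. RGS2, a regulator that shortens G protein signals, read 10.08, 10.32, 10.35 and 9.05 in the HOXD13 lines, against 8.40, 8.43 and 8.61 in the V5 vector arrays. All 4 lines were higher and clone c least so (1.47, SE 0.25, adjusted p = 0.00504 in limma).

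FOS, an immediate early transcription factor and part of AP-1, read 6.87, 7.37, 8.00 and 4.28 in the HOXD13 lines, against 3.96, 4.11 and 4.08 in the V5 vector arrays. The mix and clones a and b were far above the vector arrays and clone c only just above them (2.58, SE 0.61, adjusted p = 0.0226 in limma). The third, SIK1, a kinase that damps cAMP transcription, falls outside the naming rule and was chosen after its values were seen (1.23, SE 0.30, adjusted p = 0.0270 in limma). The list's median shift was 0.63, 0.84 and 0.88 in the mix, a and b, and -0.10 in clone c. In clone c the shifts of the 3 called genes were 0.58 for RGS2, 0.23 for FOS and 0.20 for SIK1.

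The median shift of 21 tested regulators of the PTGS2 transcript was 0.08 in the HOXD13 lines. Of them 1 rose and 0 fell, beside 2.49% higher and 6.19% lower over all probe sets. The one was ZFP36, an RNA-binding protein known to speed the decay of transcripts with AU-rich tails, which read 7.15, 7.38, 7.57 and 5.83 in the HOXD13 lines, against 5.49, 5.67 and 5.88 in the V5 vector arrays. Clone c lay among the vector arrays and the other lines above them (1.30, SE 0.33, adjusted p = 0.0317 in limma). Of 7 tested NF-kB response genes 0 were called and 3 had an unadjusted p under 0.05, beside 25.1% of all probe sets. Their median shift was 0.42, and it was 0.40, 0.62 and 0.96 in the mix, a and b, and -0.61 in clone c. In the HOXD9 lines the medians were 0.10 for the cAMP-responsive list, 0.17 for the regulators and 0.29 for the NF-kB list, with 0 calls in each. Those counts depend on HOXD13 clone c being in the fit. Without it, limma called 2 of 7 NF-kB genes, 1 of 21 regulators and 0 of 14 cAMP-responsive transcripts in the HOXD9 comparison. The regulator called, NFKBIA, is also in the NF-kB list. Over all probe sets 787 of 19816 (3.97%) were called in that fit.

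**Figure D3:**
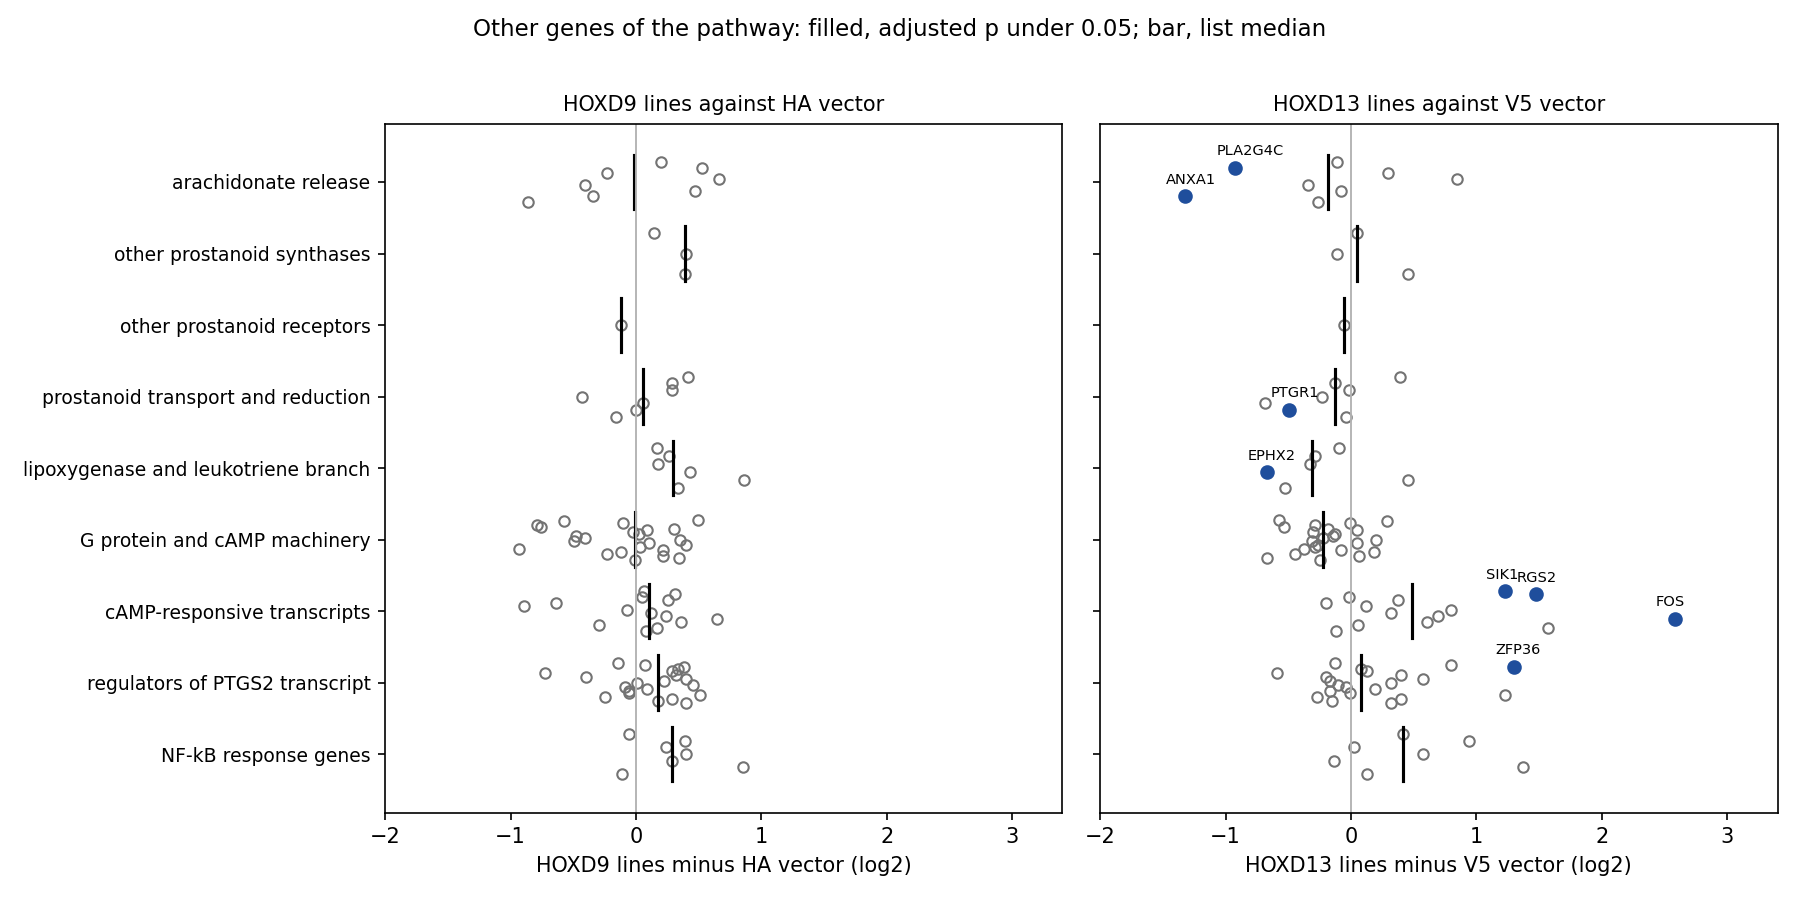
Shift of each tested gene of the pathway lists in log2 units, HOX lines minus vector arrays of their tag, with lists down the page and the line at 0 marking no difference. The median shift of the cAMP-responsive list in the HOXD13 lines is 0.49, and 3 of its 14 genes passed the test.

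Without HOXD13 clone c, 36 of the 89 genes were called (40.4%), 24 higher and 12 lower, and so were 6496 of all 19816 probe sets (32.8%). The cAMP-responsive list then had 8 of 14 genes higher and 0 lower, the NF-kB list 4 of 7 higher and 0 lower, the regulators 9 higher and 1 lower of 21, and the G protein and cAMP machinery 0 higher and 5 lower of 23. Arachidonate release had 1 higher and 2 lower of 8, and the 1 higher was the phospholipase PLA2G15 (1.27, adjusted p = 0.00116 in limma), named here after its values were seen. Transport and reduction had 1 higher and 2 lower of 7. The list of the lipoxygenase branch and epoxide hydrolases had 1 higher and 2 lower of 6. The other synthases had 1 higher of 3, and the 1 receptor was not called. The HEK293 markers moved the same way, with 5 of 7 higher and 0 lower, and their median shift was 0.35, 0.45 and 0.54 in the mix, a and b, and -0.20 in clone c. The part of these markers in the list counts was not tested. Over all probe sets 17.3% were higher and 15.5% lower. PTGER4 and PTGS2 themselves were 2.67 and 0.99 higher there.

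Patterns most like those of PTGER4 and PTGS2 were sought among 2812 genes, by Pearson correlation over the 14 arrays with each tag set centred on its mean. The arrays share clones and a tag set, so these are descriptions. For PTGER4 the closest was OR51E2, an olfactory receptor gene (r = 0.977), followed by KCNQ1OT1 (0.950), a long noncoding RNA antisense to KCNQ1, AMBN (0.948), the enamel protein ameloblastin, RFX6 (0.946), a transcription factor, and FN1 (0.938), fibronectin. OR51E2 averaged 6.58 ± 0.31 in the HOXD13 lines (SD, n = 4) and lay at the floor in the V5 vector arrays at 2.07, and FN1 averaged 11.58 ± 0.14 (SD, n = 4) in the HOXD13 lines and 10.56 ± 0.05 (SD, n = 3) in the V5 vector arrays. For PTGS2 the closest were RBM4 (0.940), an RNA-binding protein, VAV3 (0.916), a guanine nucleotide exchange factor, a probe set annotated to MIR3682 (0.896), which does not measure a mature miRNA, SCAND3 (0.890) and DOCK4 (0.889). The difference between the HOXD13 lines and the V5 vector arrays ran from 1.02 to 4.51 for the first 5 and from 0.77 to 1.15 for the second 5. These genes were picked for their likeness to PTGER4 or PTGS2, so nothing is read from their rise. OR51E2, KCNQ1OT1, AMBN and RFX6 reached 5 only in HOXD13 lines and passed the filter only through them.

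**Figure D4:**
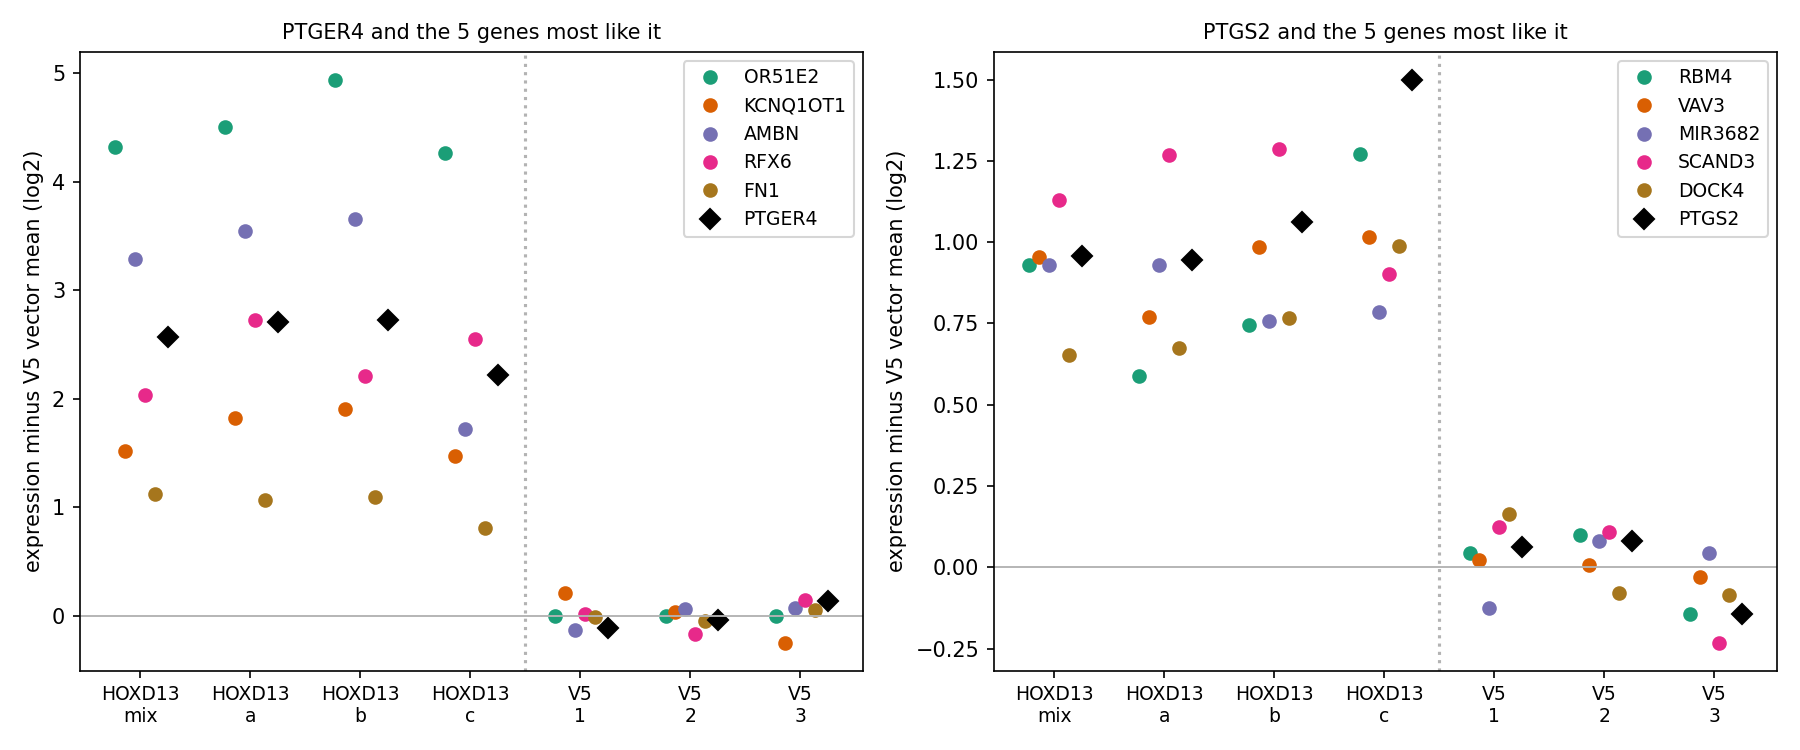
Expression minus the V5 vector mean (log2, vertical axis) on the 4 HOXD13 lines and, right of them, the 3 V5 vector arrays, for PTGER4 (left panel) and PTGS2 (right panel, both as black diamonds) with the 5 genes most like each. The HOXD13 mean lies above the V5 vector mean for every gene drawn, by 4.51 for OR51E2 and by 0.77 for DOCK4. This follows from the choice of genes by their likeness to PTGER4 or PTGS2.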

How the data were processed

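Total RNA of 14 cultures was read on Affymetrix arrays, as the labels state. The authors deposited 1 value per probe set on the log2 scale, made with GCRMA per the submitters' processing notes. For its version, and for any genome build: not given in the sources used here. Sorted values matched within each tag set, so the sets had been normalized separately. Levels carry no depth, and the number of arrays limits the precision.

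Members, lists, motifs and tests were chosen with earlier results of these data known. Probe sets with 1 gene symbol numbered 41097, with several 1801 and with none listed 11777. Symbols were updated through RefSeq genes, which matched 41043. After array controls (62) were left out, tests covered the 19816 probe sets that reached 5 on 3 or more of 14 arrays. The lists were arachidonate release, other prostanoid synthases, other prostanoid receptors, prostanoid transport and reduction, and the lipoxygenase branch with epoxide hydrolases. The others were G protein and cAMP machinery, cAMP-responsive transcripts, regulators of the PTGS2 transcript and NF-kB response genes. Each list gene was read by its brightest tested probe set. limma 3.58.1 in R 4.3.3 fitted 4 group means over the 14 arrays with 10 residual degrees of freedom, with two-sided tests, Benjamini-Hochberg adjustment over all tested probe sets and a threshold of 0.05. The code was tested on simulated data. Genes named were all members, the 2 largest rises and 2 largest falls called in each list, and the 5 genes most like PTGER4 and PTGS2. Alternatives changed the filter, the choice of probe set, the centring, the samples in the fit and the arrays left out, and added ACTB 3' to 5' difference as a covariate. Promoters of 8 of the 9 genes were matched in RefSeq. PTGER3 was not matched.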

Additional observations from a re-analysis of the deposited data

Results flagged for a closer look

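Within the 4 lines of a HOX gene, 4 of 29 groups of values had 1 line far from the others. Dixon's test at its 95% critical value was used, which chance alone passes in about 1 in 20 groups. The share of all probe sets that pass it was not counted, so nothing is read from the number flagged. HOXD13 clone c was the highest or lowest HOXD13 line in 87.5% of all tested probe sets. The groups were 11 member probe sets that reached 3 on some array, in the lines of both HOX genes, and the list genes named by rule, in the HOXD13 lines. All 4 flagged groups were of member values. PTGS2 was 2.72 in HOXD9 clone c and 3.84 to 4.01 in the other HOXD9 lines. PTGER2 was 3.58 in HOXD13 clone c and 4.13 to 4.22 in the other HOXD13 lines. One HPGD probe set was 3.34 in HOXD13 clone c and 2.60 to 2.64 in the other HOXD13 lines. Another HPGD probe set was 2.33 in HOXD9 clone b and 2.32 in the other HOXD9 lines, a gap at the floor of the array.

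The effects of the 2 HOX genes differed for 4 of the 89 tested pathway genes by limma's test of the difference, adjusted over all tested probe sets. The share of all probe sets called by this test was not counted, so nothing is read from the number. For PLA2G4C the HOXD9 effect minus the HOXD13 effect was 1.45 (adjusted p = 0.00778), and for EPHX2 it was 1.10 (adjusted p = 0.0130). PLA2G4C and EPHX2 were higher in all 4 HOXD9 lines than in the HA vector arrays (PLA2G4C by 0.53 and EPHX2 by 0.43, neither called) and lower in all 4 HOXD13 lines than in the V5 vector arrays. Of the other two, which fall outside the naming rule, ADCY3, an adenylyl cyclase, had a difference of 1.01 (adjusted p = 0.0462) and PRKAR2B, a regulatory subunit of protein kinase A, one of -0.86 (adjusted p = 0.0311). ADCY3 stood at 0.34 in the HOXD9 lines and -0.67 in the HOXD13 lines relative to the vector arrays of their tag, and PRKAR2B at -0.58 and 0.28, with none of these 4 shifts called. Without HOXD13 clone c, limma called the HOXD9 shifts of PLA2G4C (adjusted p = 0.0270) and PRKAR2B (0.0488), but not those of EPHX2 (0.0827) and ADCY3 (0.155). It then called the HOXD13 shift of ADCY3 (0.00351) and not that of PRKAR2B (0.265). In that fit 3.97% of all probe sets were called for HOXD9 and 32.8% for HOXD13.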

How the results depend on the processing

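No paired analysis was possible because the HOX lines are named mix, a, b and c and the vector arrays carry numbers, so the groups compared share fewer than 2 numbers. The count of called probe sets in the HOXD13 comparison was 1721 and became 1112 without the filter, 1101 with 1 probe set a gene, 1144 with the mean of a gene's probe sets and 4454 with the ACTB covariate (44% of them higher, against 28.7%). It ran from 371 without V5 vector 3 to 6496 without HOXD13 clone c. The HOXD9 count was 6 and became 1 with its own tag set alone, 11 without the filter, 1 with 1 probe set a gene, 2 with the mean and 33 with the covariate, and ran from 1 to 787 (without HOXD13 clone c). The pathway lists had 8 calls in the HOXD13 comparison and 3 with its own tag set alone, 4 without the filter and 22 with the covariate, with 1 to 36 when 1 array was left out; the HOXD9 lists had 0 to 5, with 5 without HOXD13 clone c. For the member probe sets in the HOXD13 comparison, whose outcome the choice of the set fixed and from which nothing is read, the number past the threshold was 2, and 1 without the filter and 1 with a filter value of 6, where PTGS2 was left out; leaving out 1 array gave 1 to 2, with 1 without any single V5 vector array or HOXD13 clone b. In the HOXD9 comparison 0 members were called in every setting. The PTGS2 shift in HOXD9 ran from -0.30 to 0.14. The PTGER4 shift in HOXD13 stayed between 2.50 and 2.67. Of the 8 called list genes, RGS2 alone kept its call in all 22 alternatives (highest adjusted p 0.0450); the highest adjusted p was 0.115 for FOS, 0.114 for SIK1, 0.129 for ZFP36, 0.171 for ANXA1, 0.145 for PTGR1, 0.116 for EPHX2 and 0.0577 for PLA2G4C. For each probe set the fit shares 1 estimate of spread over the 4 groups. An array left out of 1 comparison therefore also changes the p-values of the other. Without HOXD13 clone c the HOXD9 shifts of PTGES2 and PTGES3 stayed at 0.44 and -0.24, with adjusted p of 0.0940 and 0.0845 in limma. Beyond this, the cause of the moves was not tested.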
